A study of Mus musculus with 2 samples.

Results

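Wide distal hotspots are long stretches of open chromatin that lie away from the starts of protein-coding transcripts. DNase I cuts DNA where nucleosomes are displaced, and sequencing the cut ends maps those places. A hotspot is a region where the authors found more cuts than in the surrounding sequence, and a peak is a 150 bp interval of locally strongest signal. The regions described here were chosen by their measured widths. They are the autosomal hotspots of replicate 1 that span 2000 bp or more, that a replicate 2 hotspot of 2000 bp or more overlaps by at least 1 bp, and that have no protein-coding transcript start of the GENCODE M21 annotation inside them or within 1000 bp. Segments of chromosome 10 from 107.2 to 107.3 Mb and from 117.2 to 118.7 Mb were left out. In all, 182 of the 114404 autosomal hotspots of replicate 1 met these conditions. Coordinates are 1-based on the mouse assembly mm10.

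The series holds 1 group of 2 DNase-seq libraries and no other condition. Both came from adipocytes made in culture from 3T3-L1, a mouse preadipocyte line, and taken on day 8 of differentiation. The labels add the strain C57BL/6J, although the 3T3-L1 line is known to come from Swiss mouse embryos, and 1 donor record for both libraries. No treatment, genotype or untreated culture is labelled, each library combined technical replicates, and nothing in the labels says whether the cultures were separate, so every spread given here is the spread between these 2 libraries. Replicate 1 had 114404 autosomal hotspots and 130001 peaks, and replicate 2 had 179465 hotspots and 210226 peaks. Read depth is not given in the files, so it is unknown how much of this difference is depth. Peaks lay at the promoters of 8 of 8 adipocyte markers in both libraries, among them Adipoq, Fabp4 and Plin1, and at 5 of 6 preadipocyte and fibroblast markers. They lay at the promoters of 0 of 3 blood, 0 of 3 endothelial, 0 of 3 epithelial and 0 of 3 liver markers, of 1 of 3 muscle markers (Acta1) and of 2 of 3 neuronal markers (Snap25 and Rbfox3).

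Broad tracts of accessible chromatin outside promoters are known from clustered enhancers, where several transcription factor sites lie side by side near genes that define a cell type, and from the promoters and bodies of strongly transcribed noncoding RNA genes. In fat cells, C/EBP proteins and the nuclear receptor PPARG, bound to DNA with RXR, are the known activators of the adipocyte programme, while AP-1, EBF, glucocorticoid receptor and KLF proteins also bind enhancers in these cells. CTCF is known as the factor that marks chromatin loop anchors and insulators, which are usually short accessible sites.

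The sequences of 6 peaks, each with the bases on either side up to 300 bp in all, are shown as examples of the DNA described below. They are plus-strand sequence of the mouse reference assembly GRCm38, the build also called mm10, and capitals mark motif matches on either strand. The first 4 show the strongest replicate 1 peak of members near genes of fat storage and of the member nearest to Cebpb: the member beside Fabp4 (chr3:10203001-10203300), the member past the 3′ end of Lpl (chr8:68908681-68908980), the member in Plin4 (chr17:56101001-56101300) and the member nearest Cebpb (chr2:167594581-167594880). The Cebpb member is named for this position only: it lies 92.7 kb from the Cebpb start, and its nearest coding gene is Ube2v1.
Fabp4 member: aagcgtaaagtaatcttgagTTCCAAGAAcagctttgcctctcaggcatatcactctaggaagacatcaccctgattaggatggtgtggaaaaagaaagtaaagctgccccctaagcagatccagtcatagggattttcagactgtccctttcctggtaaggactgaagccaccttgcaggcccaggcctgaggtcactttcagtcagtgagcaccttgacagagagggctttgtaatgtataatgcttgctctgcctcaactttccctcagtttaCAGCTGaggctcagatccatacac
Lpl member: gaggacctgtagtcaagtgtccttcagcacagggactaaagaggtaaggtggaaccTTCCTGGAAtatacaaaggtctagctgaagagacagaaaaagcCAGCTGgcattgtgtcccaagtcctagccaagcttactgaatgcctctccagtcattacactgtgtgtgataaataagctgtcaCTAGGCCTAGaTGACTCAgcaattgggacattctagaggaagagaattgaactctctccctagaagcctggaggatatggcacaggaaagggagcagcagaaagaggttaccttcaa
Plin4 member: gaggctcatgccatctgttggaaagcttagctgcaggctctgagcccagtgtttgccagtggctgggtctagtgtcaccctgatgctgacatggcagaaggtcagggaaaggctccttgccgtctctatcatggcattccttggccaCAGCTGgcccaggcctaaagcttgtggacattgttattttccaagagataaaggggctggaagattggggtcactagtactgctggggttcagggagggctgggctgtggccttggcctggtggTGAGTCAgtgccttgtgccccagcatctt
Cebpb member: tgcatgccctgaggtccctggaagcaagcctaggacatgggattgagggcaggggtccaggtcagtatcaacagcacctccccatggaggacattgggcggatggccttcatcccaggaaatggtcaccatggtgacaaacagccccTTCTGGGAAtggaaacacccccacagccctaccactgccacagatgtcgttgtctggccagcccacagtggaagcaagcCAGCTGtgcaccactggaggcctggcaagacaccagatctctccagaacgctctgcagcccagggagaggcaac
Capitals in these 4 mark STAT sites (TTCNNNGAA), the E-box CAGCTG, AP-1 sites (TGANTCA) and, in the Lpl member, also a MEF2 site (CTANNNNTAG). Some of these matches lie outside the 150 bp peak at the centre of the stretch. These are both matches of the Fabp4 member, the STAT site of the Lpl member, the AP-1 site of the Plin4 member and the E-box of the Cebpb member.

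The next sequence shows the strongest replicate 1 peak of the widest member in the Cwc22 segment of chromosome 2 (chr2:78021981-78022280). Capitals mark a C/EBP site (TTGCNNAA) and a KLF or SP site (GGGNGGGG), both outside the 150 bp peak at the centre.
Cwc22 segment member: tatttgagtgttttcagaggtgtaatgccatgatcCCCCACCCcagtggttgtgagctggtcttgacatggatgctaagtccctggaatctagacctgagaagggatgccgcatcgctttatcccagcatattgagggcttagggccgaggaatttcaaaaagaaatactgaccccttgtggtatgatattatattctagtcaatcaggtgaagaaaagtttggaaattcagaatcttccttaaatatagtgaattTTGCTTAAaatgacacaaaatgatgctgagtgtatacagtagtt
The last shows a 300 bp stretch with 4 matches to the KLF or SP site that do not overlap, some of them adjoining and some outside the 150 bp peak at its centre, and was chosen after the motif counts were known. It lies in a member with no protein-coding start within 100 kb (chr11:18877541-18877840). Capitals mark every KLF or SP match, and adjoining or overlapping matches form 1 run.
chromosome 11 member: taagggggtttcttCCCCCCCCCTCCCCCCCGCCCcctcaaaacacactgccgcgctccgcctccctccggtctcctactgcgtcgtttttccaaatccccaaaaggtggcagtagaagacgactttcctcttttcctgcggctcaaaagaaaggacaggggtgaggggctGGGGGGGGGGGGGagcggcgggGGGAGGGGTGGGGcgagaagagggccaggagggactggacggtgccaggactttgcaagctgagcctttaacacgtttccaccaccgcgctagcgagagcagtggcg
This stretch had a GC content of 64%, against a median of 49.3% over the 830 replicate 1 peaks inside members.

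The width limit lay at the far end of the width distribution of both libraries. The median autosomal hotspot spanned 276 bp in replicate 1 and 272 bp in replicate 2, and 1093 hotspots of replicate 1 (0.955%) and 3220 of replicate 2 (1.79%) reached 2000 bp. Of the 1093, 1036 were overlapped by a wide hotspot of replicate 2. Most of these, 804 or 77.6%, lay at protein-coding starts and were not taken. The remaining 232 included 50 in the left-out segments of chromosome 10, which gave the 182 members. Members just inside the limit spanned 2002 bp in replicate 1 and 2394 bp in replicate 2 at Stk39, and 2024 and 2055 bp at March5. A region just outside it spanned 1995 and 2024 bp at Rere. Widths therefore ran on without a break across the limit. For comparison, 87850 distal hotspots of replicate 1 were under 2000 bp and overlapped a replicate 2 hotspot that was also narrower. These are called narrower shared hotspots below, and 1688 of them spanned at least 1000 bp in both libraries.

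Members spanned from 2002 to 8923 bp in replicate 1, with a median of 2418.5 bp, and from 2018 to 11182 bp in replicate 2, with a median of 2777 bp. They covered 498 kb in replicate 1 and 615 kb in replicate 2. In replicate 1, 105 members were under 2500 bp, 40 reached 3000 bp and 18 reached 4000 bp. Replicate 2 gave the wider interval for 151 members and replicate 1 for 21, and 10 had identical edges. The ratio of the replicate 2 to the replicate 1 width had a median of 1.09 and ran from 0.541 to 4.89. The shared bases made up a median of 90.2% of the bases covered in either library. The −log10 q value of a hotspot, the authors' measure of how unlikely its cuts are by chance, has a ceiling of 100 in these files. It stood at the ceiling for 180 members in replicate 1 and for 182 in replicate 2, so it cannot rank them. The exceptions in replicate 1 were a member at Meis1 with 5.10 and the member in Lipe with 4.70.

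**Figure D1:**
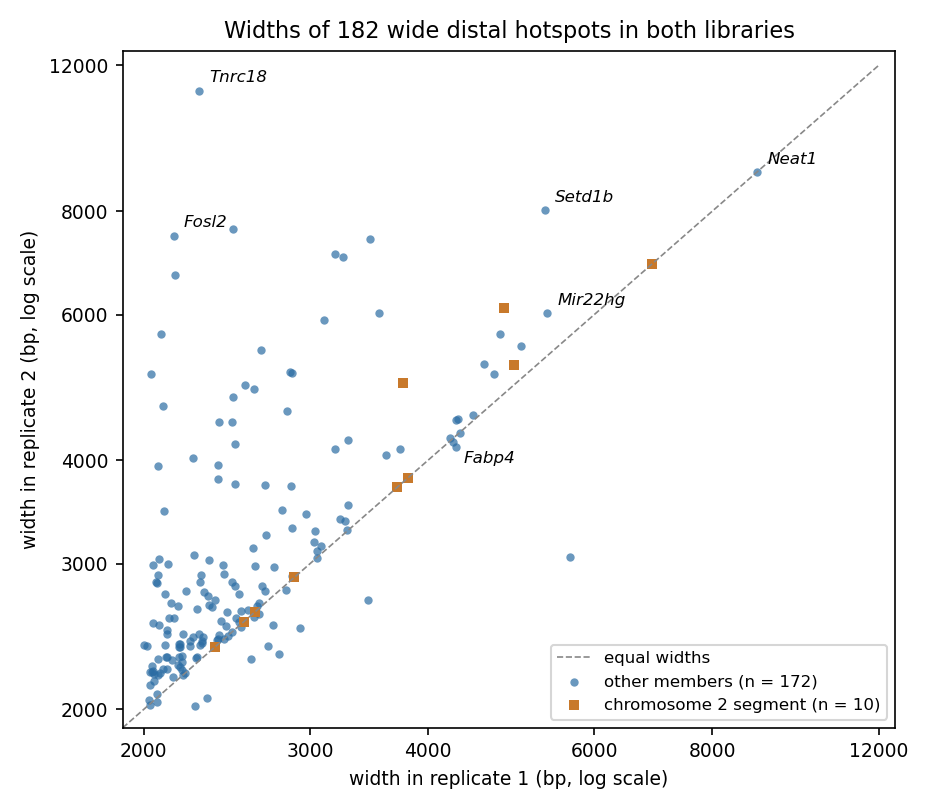
Width of each of the 182 members in replicate 1 (horizontal axis, bp, log scale) against replicate 2 (vertical axis, bp, log scale), with squares for the 10 members of the chromosome 2 segment and a dashed line for equal widths. Most points lie on or above the line, with 151 members wider in replicate 2 and Tnrc18 highest at 11182 bp.

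The widest member by mean over the libraries was 8923 bp long in both libraries and spanned the start of Neat1, the noncoding RNA on which paraspeckles form (chr19:5840831-5849753, intergenic with respect to coding genes, nearest coding start Frmd8 at 25.5 kb). It held 16 peaks in replicate 1 and 19 in replicate 2. Here and below, the peaks of both libraries in a member are counted inside its replicate 1 interval. Where the replicate 2 interval is wider, its further peaks are not in the count.

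At Tnrc18, a gene of a trinucleotide repeat protein, the member spanned 2286 bp in replicate 1 and 11182 bp in replicate 2 (chr5:142812944-142815229, intronic). Beside Setd1b, a histone H3 lysine methyltransferase, it spanned 5316 and 8029 bp (chr5:123135304-123140619, intergenic) and held 11 and 9 peaks. At Mir22hg, the host gene of the microRNA miR-22, it spanned 5350 and 6022 bp (chr11:75458202-75463551) with 7 and 8 peaks. A member 5.43 kb from the start of Slc25a10, the mitochondrial dicarboxylate carrier, spanned 5021 and 5501 bp. A member in Smad6, an inhibitor of BMP signalling, spanned 3249 and 7044 bp, and a member beside Kdm6b, a histone demethylase, spanned 3191 and 7098 bp. The antiproliferative gene Btg1 (4589 and 5229 bp), the zinc finger homeobox gene Zfhx4 (4772 and 5683 bp), the protocadherin gene Pcdh17 (3469 and 7404 bp), the zinc finger gene Zc3h4 (2488 and 7606 bp) and the homeobox gene Meis2 (4693 and 5092 bp) completed the 15 largest mean widths together with 3 members around Cwc22, described below. Among these 15 the libraries differed most at Tnrc18.

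Some members reached a coding start in the longer list of hotspots. In replicate 2, 13 of the overlapping intervals held a protein-coding start and 15 lay within 1000 bp of one. The replicate 2 interval was more than double the replicate 1 width for 11 members, and 9 of those 11 replicate 2 intervals lay within 1000 bp of a coding start. They include Tnrc18, the AP-1 subunit gene Fosl2 (2151 and 7470 bp), the transcriptional regulator gene Cited2 (2158 and 6704 bp), Zc3h4 and the small GTPase gene Rhob (2659 and 5432 bp). For these members the word distal holds for replicate 1 only. The rule also screened only starts of transcripts classed as protein-coding. When the starts of every transcript of coding genes were avoided, 163 of the 182 members remained. With the starts of every annotated transcript avoided, 123 remained. For the members lost in this way, distal means away from protein-coding transcript starts and not from all starts of coding genes or other genes.

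The deposited lists also cut long accessible tracts into pieces. Neighbouring hotspots were at most 20 bp apart in 7995 of 114385 neighbouring pairs in replicate 1 (6.99%) and in 15105 of 179446 in replicate 2 (8.42%), and a single base lay between 1537 and 3507 of them. Of the members, 66 (36.3%) in replicate 1 and 72 (39.6%) in replicate 2 had such a neighbour at an edge, and 87 had none in either library. All 10 members with identical edges in the libraries had one. Joining neighbours at most 20 bp apart gave tracts with a median of 2596 bp in replicate 1 and 3047 bp in replicate 2, the longest of them being 13008 and 18140 bp at Neat1. After joining, the tract of 6 members in replicate 1 and of 20 members in replicate 2 lay within 1000 bp of a protein-coding start, and 162 members were in tracts free of one in both libraries.

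Every member held at least 2 peaks in each library. The number per member had a median of 4 in both, and ran to 16 in replicate 1 and 19 in replicate 2. The mean was 4.63 ± 0.0971 peaks (SD of the 2 library means, n = 2). In replicate 1, 144 members held 2 to 5 peaks and 38 held 6 or more, and in replicate 2 the counts were 143 and 39. Narrower shared hotspots held a median of 1 peak in each library. Peaks made up 25.1% of the members' sequence in replicate 1 and 25.7% in replicate 2, so most of a member lay between peaks. Neighbouring peaks inside a member were a median of 520 bp apart, centre to centre, in replicate 1 and 500 bp in replicate 2. Peak signal runs from 1 to 150 in whole numbers in these files, with a scaling that is not stated. A member's strongest peak had a median signal of 107 in replicate 1 and 140 in replicate 2, against 43 and 86 in narrower shared hotspots. The median strongest peak stood at percentile 94.8 of all autosomal peaks in replicate 1 and 96.8 in replicate 2. The widths that chose the members and these peak values come from the same reads, so they are given as a description.

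**Figure D2:**
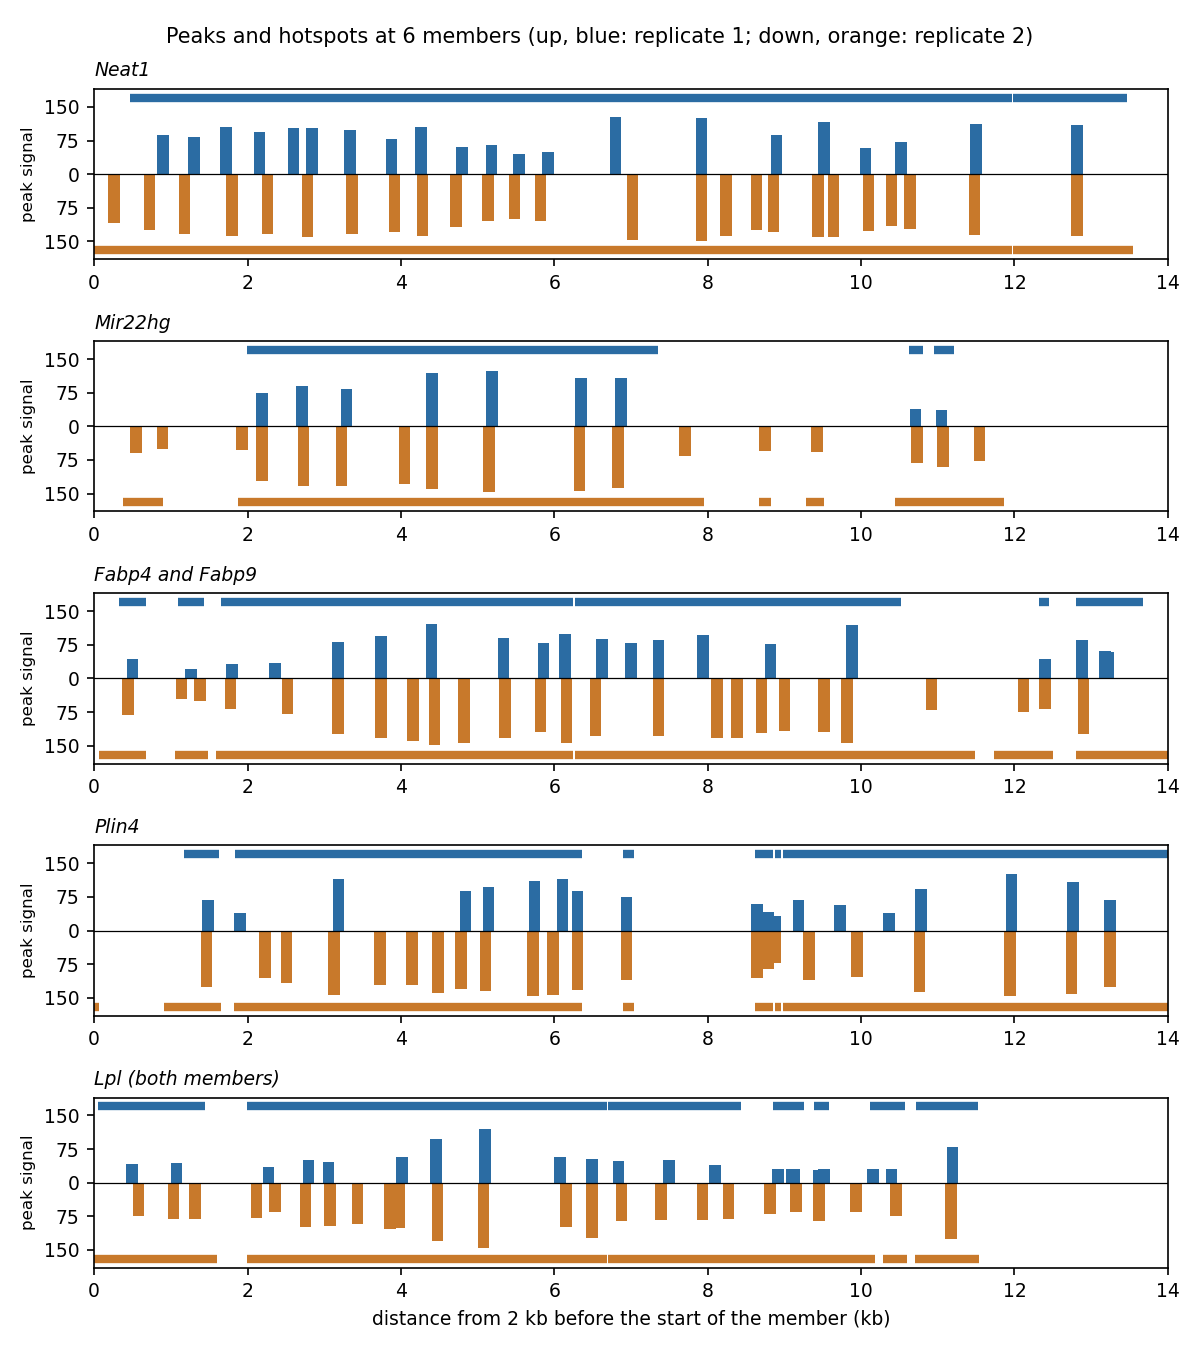
Peak signal (vertical axis, the authors' units, 1 to 150) and hotspots (thick lines) over 14 kb from 2 kb before the start of members at Neat1, Mir22hg, Fabp4, Plin4 and Lpl, with replicate 1 upward and replicate 2 downward. The members are chains of separate peaks, 16 and 19 in the Neat1 member and 7 and 9 in the Fabp4 member, and the thin breaks in the thick lines are gaps of a few bases between neighbouring hotspots.

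Members were unevenly spread along the chromosomes. Of the 182, 35 lay in 11 runs whose members were less than 100 kb apart, and 147 stood alone. The largest run held 10 members in 153 kb on chromosome 2 (chr2:77873953-78027240), 7 of them nearest to Cwc22, a pre-mRNA splicing factor, and 3 to Zfp385b, a zinc finger gene. The widest of them was 6899 bp in both libraries, and the 10 together held 75 peaks in replicate 1 and 81 in replicate 2. Hotspots covered 35.4% of the segment from 77.87 to 78.03 Mb in replicate 1 and 78.2% in replicate 2, against 1.79% and 3.02% of the autosomes. The segment held 79.4 peaks per 100 kb in replicate 1 and 168 in replicate 2, against 5.28 and 8.54 over the autosomes. A window of 100 kb around each of these 10 members held a median of 61 and 121 peaks, and around the other 172 members a median of 19 and 27.5. Of the 10 members with identical edges, 6 lay here. Copy number in this segment was not measured, and its part in the density was not tested, so results are also given for the 172 members outside the segment.

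**Figure D3:**
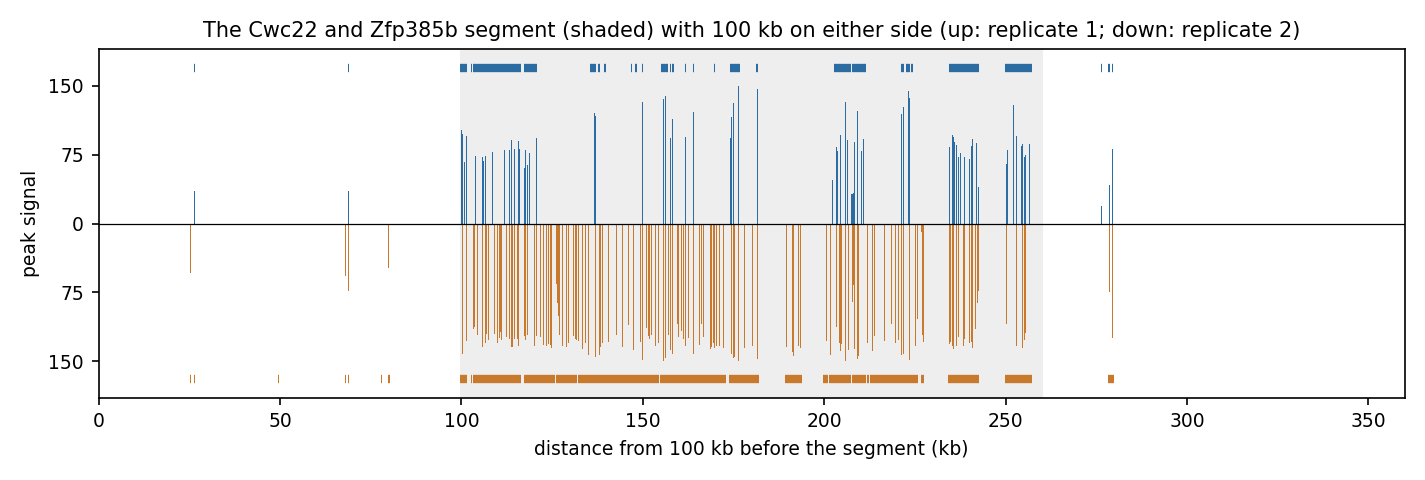
Peak signal (vertical axis, the authors' units) and hotspots (thick lines) along the chromosome 2 segment around Cwc22 and Zfp385b (shaded, 160 kb) and 100 kb on either side, with replicate 1 upward and replicate 2 downward. Peaks crowd within the segment, 127 in replicate 1 and 269 in replicate 2, and are sparse on both sides of it.

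The other runs were smaller. Around Irf2bpl, a ubiquitin ligase and transcriptional regulator gene, 4 members lay in 95.7 kb, and 4 lay in 55.1 kb from Malat1 to Neat1, both nuclear noncoding RNAs. At Meis2, 3 members lay in 16.6 kb. Pairs lay at Kdm6b, Chd9, Pcdh17, Zc3h12a and Lpl, at Angptl4 with Rab11b, and at Lipe with Cnfn. Among the 11 runs, 6 gaps between neighbouring members were 100 bp or less, 4 of them in the chromosome 2 segment.

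By the position of their centres, 110 members were intergenic (60.4%, exact 95% binomial interval 52.9 to 67.6), 62 intronic (34.1%) and 10 exonic (5.49%). Among narrower shared hotspots, 48.8% were intergenic, 47.9% intronic and 3.27% exonic, and those of at least 1000 bp stood between with 56.3% intergenic. Without the chromosome 2 segment, 59.3% of members were intergenic. Such intervals cover counting error only, since neighbouring regions are not independent. Members lay a median of 29.2 kb from the nearest coding start, close to the 27.7 kb of narrower shared hotspots. However, 40 members (22%) lay within 5 kb of a coding start, against 14.1% of narrower shared hotspots and 13.3% of those of at least 1000 bp. The 20 members whose replicate 2 tract, joined at 20 bp, came within 1000 bp of a coding start were all among these 40. Such tracts were not traced for narrower shared hotspots, so their part in this difference was not tested. Members over 100 kb from every coding start numbered 25 (13.7%), against 19.1%. Of the members, 90 (49.5%) touched the body of a protein-coding gene with at least 1 bp.

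The start of a gene not classed as protein-coding lay inside 41 members (22.5%, interval 16.7 to 29.3), against 0.977% of narrower shared hotspots and 6.16% of those of at least 1000 bp. A wider region holds more starts by its length alone. Per 100 kb of sequence there were 8.24 members with such a start, against 3.07 narrower shared hotspots and 4.92 of those of at least 1000 bp. Among narrower shared hotspots, the share not corrected for length was larger in each wider class, from 0.497% under 250 bp to 5.82% at 1000 bp or more by replicate 1 width. From the narrowest to the widest of these classes, 3.14, 2.72, 3.10 and 4.67 hotspots per 100 kb held such a start. Corrected for length, there was thus no steady rise with width, and only the class of 1000 bp or more stood clearly higher. Without the chromosome 2 segment the share in members was 23.3%. A CpG ratio, the observed over the expected number of CpG dinucleotides, of 0.6 or more, which is typical of CpG island promoters, was found in 22 members (12.1%), in 2.43% of narrower shared hotspots and in 5.86% of those of at least 1000 bp. The median GC content was 48.1% in members and 46.7% in narrower shared hotspots, and annotated repeats made up a median of 12.9% and 9.16%.

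**Figure D4:**
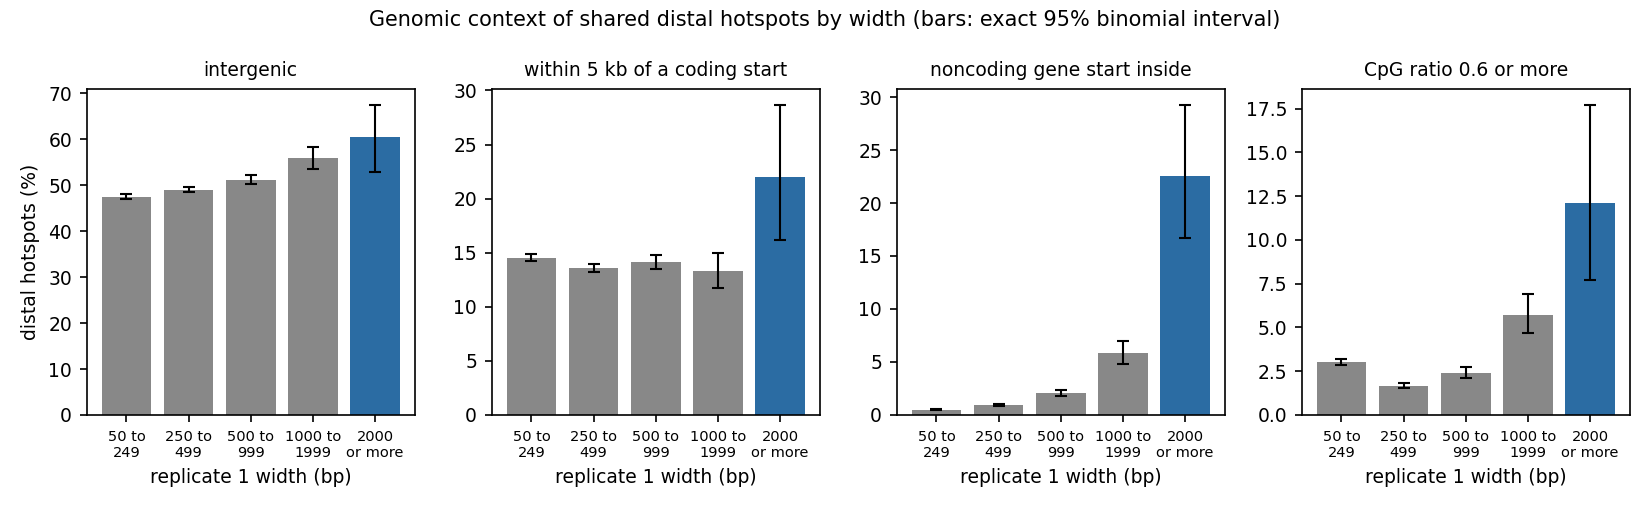
Share of shared distal hotspots (vertical axes, %) in each class of replicate 1 width (horizontal axes, bp) that were intergenic, lay within 5 kb of a coding start, held the start of a noncoding gene or had a CpG ratio of 0.6 or more; error bars are exact 95% binomial intervals. The members (blue) stand at 60.4%, 22%, 22.5% and 12.1%.

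The noncoding genes that start inside members include long intergenic RNAs in 19 members, unreviewed transcribed loci (the class TEC) in 10 and processed transcripts in 8, and antisense RNAs in 4. Malat1, a nuclear RNA known to be among the most abundant in many cells, had annotated starts in members of 2454 bp in both libraries (chr19:5794676-5797129) and of 2064 and 2845 bp (chr19:5802137-5804200). At Dnm3os, the host transcript of the microRNA gene Mir199a-2, the member spanned 4469 and 4534 bp inside an intron of Dnm3 (chr1:162217079-162221547) and held 8 and 7 peaks. Dleu2, the host gene of microRNAs of the miR-15 family, started in a member of 2868 and 2902 bp with a CpG ratio of 0.740. Lncpint, a long noncoding RNA induced by p53, started in a member of 3101 and 5905 bp, 179 kb from the nearest coding start. The imprinted noncoding gene Peg13 started in a member of 2291 and 2466 bp. These members therefore hold annotated transcript starts, though none of a coding transcript. A few starts belong to genes whose symbols are those of coding genes but which M21 classes as processed transcripts, such as Zswim6 and Abhd1.

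Genes of fat storage were the list with the most members nearby. Over all 20733 protein-coding autosomal genes, 138 (0.666%) were the nearest gene of at least 1 member within 100 kb, and 454 (2.19%) had a start within 100 kb of one. In the list of lipid storage and lipolysis genes, 4 of 23 were nearest to a member, namely Lpl, Plin4, Lipe and Angptl4. With Fabp4 and Abhd5, 6 of the 23 had a member within 100 kb. Of the other adipocyte lists, 0 of 24 adipogenic transcription factor genes, 0 of 21 fatty acid and triglyceride synthesis genes and 1 of 21 adipokine and insulin response genes (Irs2) were nearest to a member. Over these 4 lists together, 5 of 89 genes (5.62%) were nearest and 8 (8.99%) were within 100 kb. The nearest share moved with the rule for members, to 14.6% with a width limit of 1500 bp, 2.25% with 3000 bp, 3.37% when the starts of every transcript of coding genes were avoided and 2.25% when those of every annotated transcript were, and to 25.8% with replicate 2 alone. Over the 12 other lists, 2 of 214 genes were nearest, Pdk4 and Twist2, and 8 (3.74%) were within 100 kb. Angptl4 is also in the glucocorticoid response list but is counted here with the adipocyte lists only. In the glucocorticoid response list itself, 2 of 15 genes (13.3%, interval 1.66 to 40.5) were nearest, Angptl4 and Pdk4. That is close to the 17.4% (interval 4.95 to 38.8) of the lipid storage and lipolysis list. Thermogenic, hepatocyte, muscle, neuronal, endothelial and bone genes had no member within 100 kb. Of 18 epithelial genes, 3 did, with Krt8 and Krt18 sharing a single member. A member within 100 kb is a matter of position and does not assign the member to the gene.

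At Fabp4, the fatty acid carrier of adipocytes, the member spanned 4248 bp in replicate 1 and 4209 bp in replicate 2 (chr3:10200750-10204997) and held 7 and 9 peaks, the strongest at 121 and 148. Its edge lay 3.58 kb from the Fabp4 start, and 910 bp of it covered the 3′ end of the gene, which runs leftward on the minus strand. The strongest peak, printed above, was centred 5.41 kb downstream of the Fabp4 start. The nearest coding start by the region's edge was that of Fabp9, a paralogue of the same family. A neighbouring hotspot began less than 20 bp away, and joining the pieces gave a tract of 8863 bp in replicate 1 and 9888 bp in replicate 2 that came within 1000 bp of a coding start.

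Plin4, which encodes a coat protein of nascent lipid droplets, held a member of 4306 and 4485 bp with 5 and 10 peaks (chr17:56099965-56104270, exonic), and 3680 bp of it lay in the gene. Lpl, the lipase that releases fatty acids from circulating triglycerides, had 2 members separated by a single base, of 2212 bp (chr8:68905735-68907946) and 2480 bp (chr8:68907948-68910427), with the same widths in both libraries. Together they spanned 4692 bp with 8 peaks in replicate 1 and 11 in replicate 2, and lay at and past the 3′ end of the gene, the nearer one covering 1714 bp of it. Lipe, the hormone-sensitive lipase, held a member of 2126 and 2580 bp in an intron (chr7:25380691-25382816). Its strongest peak, 41 in replicate 1 and 86 in replicate 2, was the weakest of any member's in both libraries. Angptl4, a secreted inhibitor of lipoprotein lipase and a known PPAR and glucocorticoid target, held a member of 2624 and 2984 bp with 7 peaks in each library (chr17:33773715-33776338, exonic). All 4 genes with a nearest member thus had it within or at the end of the gene body.

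Other members lay farther from listed genes. The member nearest to Cebpb, the C/EBP factor that acts early in differentiation, was 92.7 kb away, spanned 2138 and 2686 bp and held 2 and 4 peaks, with Ube2v1 as its nearest coding gene. A member of 3614 and 4061 bp lay 79.2 kb from Irs2, an insulin receptor substrate gene, and one of 2048 and 2986 bp lay 12.2 kb from Pdk4, a kinase that inhibits pyruvate dehydrogenase. Among preadipocyte and fibroblast genes, a member of 2180 and 2379 bp lay 55.2 kb from the repressor gene Twist2, and a member of 5650 and 3055 bp lay 43.6 kb from the homeobox gene Prrx1. The Prrx1 member was wider in replicate 1, unlike most. Its tract is split at another place in the replicate 2 list, and joining pieces at most 20 bp apart gave 5760 bp in replicate 1 and 5947 bp in replicate 2. Pparg, the master regulator of fat cell formation, had its nearest member 120 kb away, in Syn2, and Lep, the leptin gene, 162 kb away. For Cebpa, Cebpd, Adipoq, Plin1, Slc2a4, Ucp1 and Dlk1 the nearest member lay from 528 kb (Slc2a4) to 9264 kb (Dlk1) away.

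For 4 of the 16 motifs searched, the interval of the members' peaks excluded the share in narrower shared hotspots in both libraries. The KLF or SP site stood above that share, and the CTCF core, the EBF site and the E-box below it. These intervals cover counting error only and treat peaks of the same member as independent. The split of the motifs is therefore a description and not a test. The KLF or SP site GGGNGGGG, a G-rich element bound by Krüppel-like and SP zinc finger proteins, matched 116 of 830 peaks in members in replicate 1 (14.0%) and 114 of 855 in replicate 2 (13.3%). It matched 5.09% and 5.27% of the peaks in narrower shared hotspots, and 8.26% and 9.08% in those of at least 1000 bp. The CTCF core CCANNAGGGGGC matched 1 peak in each library, 0.120% and 0.117%, against 1.88% and 1.92% in narrower shared hotspots and 0.861% and 0.870% in those of at least 1000 bp. Both strands were searched, each peak counts once, and every peak is 150 bp long, so the shares do not depend on width. The 2 libraries gave nearly the same shares for both motifs. Their peaks were taken from the same replicate 1 intervals and matched to the same reference sequence. The shares of the 2 libraries are therefore not independent of each other.

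The shares of both motifs were also set beside those in narrower shared hotspots with a strong peak. This choice used the strongest peak of each region only, and the part of peak signal was not tested. Of the narrower shared hotspots, 2519 had a strongest peak that reached the members' lower quartile (94 in replicate 1, 134 in replicate 2). In these, the KLF or SP site matched 9.52% and 9.75% of peaks and the CTCF core 0.482% and 0.480%. The members' intervals for the CTCF core, 0.00305% to 0.669% and 0.00296% to 0.650%, included these shares. For the KLF or SP site, the members' intervals, 11.7% to 16.5% and 11.1% to 15.8%, did not. The GC content of peaks had medians in replicate 1 of 49.3% in members, 48.0% in all narrower shared hotspots and 52.0% in those with a strong peak. In the 131 members with a CpG ratio under 0.6 and no annotated noncoding start inside, the KLF or SP site matched 12.3% and 12.4% of peaks; the narrower shared hotspots were not filtered in this way, and the part of CpG content was not tested. Without the chromosome 2 segment it matched 15% and 14.2%.

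The C/EBP site TTGCNNAA matched 11.0% and 9.47% of peaks in members, against 13.2% and 13.3% in narrower shared hotspots. The AP-1 site TGANTCA matched 7.59% and 9.01%, against 10.1% and 10.3%, and the E-box CAGCTG 10.1% and 10.9%, against 13.7% and 13.8%. The EBF site TCCCNNGGGA matched 3 and 2 peaks of members (0.361% and 0.234%), against 1.10% and 1.13%. The PPAR-RXR direct repeat AGGNCANAGGNCA matched 5 and 2 peaks (0.602% and 0.234%), against 0.609% and 0.620%, and the libraries differed too much for an order. The remaining 9 motifs, with the glucocorticoid receptor palindrome, STAT, TEAD, MEF2 and RUNX sites among them, had intervals in members that overlapped the share in narrower shared hotspots in both libraries. A member nevertheless holds many matches because it is long: over whole regions, 142 of 182 members (78.0%) held at least 1 C/EBP match and 137 (75.3%) at least 1 KLF or SP match, against 20.7% and 11.2% of narrower shared hotspots.

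**Figure D5:**
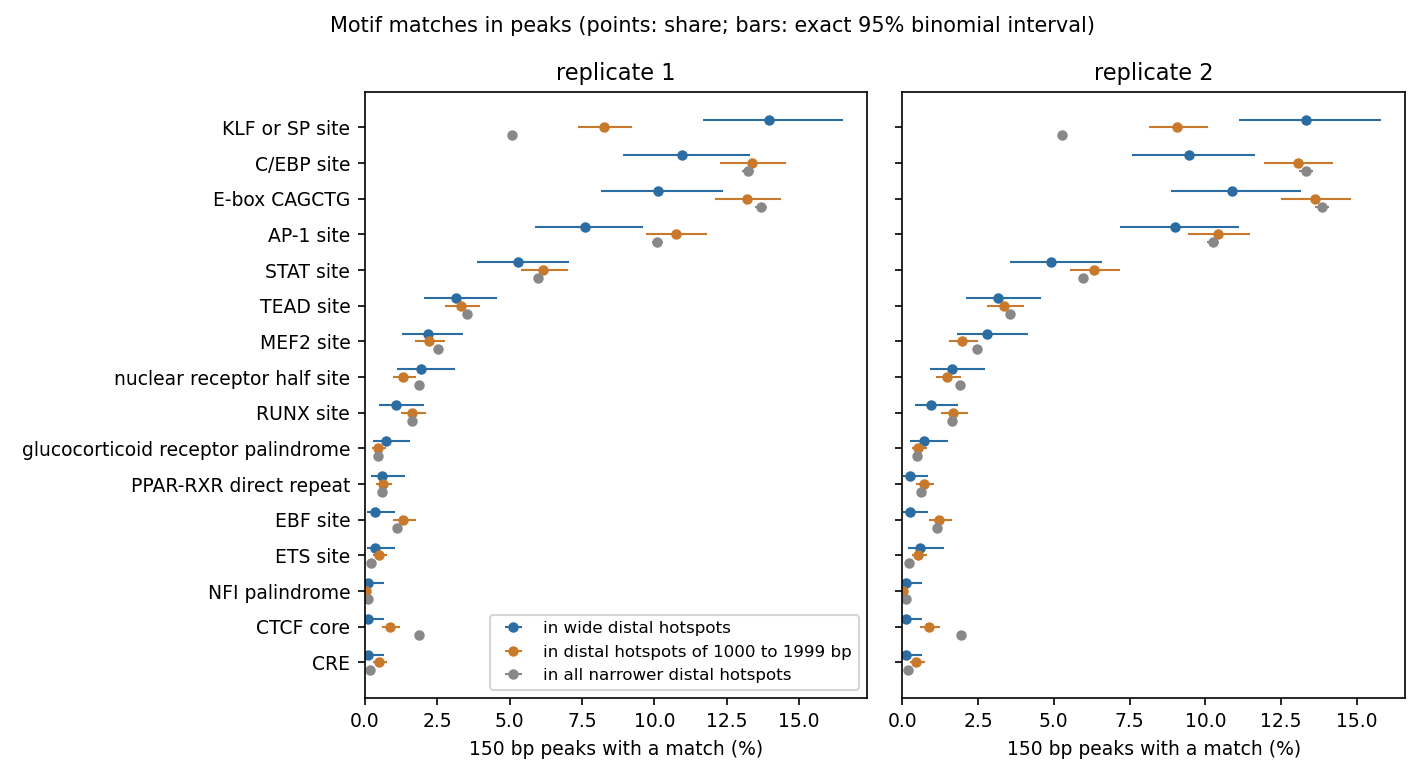
Share of 150 bp peaks with at least 1 match (horizontal axes, %) for each of 16 motifs in replicate 1 (left) and replicate 2 (right), in members (blue), in narrower shared hotspots of at least 1000 bp (orange) and in all narrower shared hotspots (grey); bars are exact 95% binomial intervals for counting error. The KLF or SP site stands at 14.0% and 13.3% in members, above the grey points, and the CTCF core at 0.120% and 0.117%, below them.

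Per kilobase of whole region, the members held 1.51 KLF or SP matches, against 0.689 in narrower shared hotspots, 1.04 in those of at least 1000 bp and 0.898 in 158 stretches of the same length as members, taken 1000 bp beyond them where no hotspot lay. Overlapping matches each count in such densities, so a long run of G adds several KLF or SP matches. For the C/EBP site the densities were 0.607 per kb in members, 0.769 in narrower shared hotspots and 0.449 in those flanking stretches. The AP-1 site had 0.432, 0.574 and 0.243 matches per kb. The CTCF core had 3 matches in all members, 0.00603 per kb, close to the 0.00507 per kb of the flanks and under the 0.0643 per kb of narrower shared hotspots. Among these sites, members stood above their flanks for the C/EBP, AP-1 and KLF or SP sites, and near them for the CTCF core. Members were also above the flanks for the E-box (0.575 against 0.464 per kb). They were above them for the nuclear receptor site AAAGGTCA (0.0723 against 0.0380, from 36 and 15 matches). The same held for the glucocorticoid receptor palindrome (0.0321 against 0.0203, from 16 and 8) and the EBF site (0.0261 against 0.0152, from 13 and 6). The ratio of members to flanks ran from 1.02 to 1.23 for the STAT, MEF2, TEAD and ETS sites. Members were below the flanks for the PPAR-RXR direct repeat (0.0241 against 0.0355), though from only 12 and 14 matches. For the RUNX site they stood near the flanks (0.0864 against 0.0913, from 43 and 36 matches). The CRE TGACGTCA (0.00804 against 0.0101) had 4 matches in members and 4 in flanks, too few for an order. A match is a run of letters and says nothing on binding.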

How the data were processed

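DNase-seq hotspots and peaks of 2 libraries from 3T3-L1-derived adipocytes were analysed. Per the deposited text lists, each library's hotspots and peaks were called by the authors from its own alignment to mm10, with replicates not pooled; which program called them is not stated in the labels or files. The authors' hotspot value is −log10 of a q value with a ceiling of 100, and the deposited peak value is a signal from 1 to 150. Depth is unknown, which limits the precision. Lines repeated in the peak lists (20 and 33) were dropped, and the 3566 and 6040 hotspots off the autosomes were not used. Members were found by the width and overlap rule with GENCODE M21 starts. Their nearest gene is the closest protein-coding start within 100 kb of an edge. A peak of either library belongs to the region whose replicate 1 interval holds its centre. Motif letters were searched on both strands of GRCm38 sequence, and densities per kb count overlapping matches separately. Named genes were the nearest genes of the 15 widest members, the 10 genes with most members, up to 3 per list and 12 adipocyte genes. A few sequences and 1 region are not reported here. The members and lists were chosen with earlier results of these data known. No test across regions was run; shares have exact Clopper-Pearson 95% intervals. Alternatives changed the width, distance, starts, overlap, base list and libraries. The motif search was tested on made-up sequences with planted motifs. The overlap, nearest-start and start-distance steps were tested on a few made-up intervals. Python 3.11.15, numpy 2.4.6, pandas 2.3.3, scipy 1.17.1 and matplotlib 3.10.9 were used.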

Additional observations from a re-analysis of the deposited data

How the results depend on the processing

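The limits are those of 2 libraries of unknown depth, in which the replicate 2 lists are longer and hotspots a few bases apart count as separate. No paired analysis was possible because the study has 1 group. The number of members depends on the width limit, with 561 at 1500 bp and 39 at 3000 bp, and the genes nearest to one then number 417 and 27, against 182 and 138. Joining hotspots at most 100 bp apart first, an alternative chosen after seeing the data, gave 280 regions. With 1 library alone the members number 196 to 766, the genes 150 to 520, the intergenic share 57.8% to 60.7% and the share of adipocyte list genes 5.62% to 25.8%, the larger counts coming from replicate 2. Intergenic shares were 64.1% at 3000 bp, 53.2% with starts only inside excluded, 63.9% at 2500 bp from a start, 65.0% with every transcript of coding genes and 62.5% with replicate 2 as the base. The density of motif matches per kb in members over that in narrower shared hotspots was 0.789 for the C/EBP site, 0.0937 for the CTCF core and 2.19 for the KLF or SP site. The C/EBP ratio was 0.675 at 3000 bp, 0.846 at the −log10 q ceiling, 0.904 against narrower hotspots of at least 1000 bp and 0.892 against narrower hotspots with a strong peak (chosen after seeing the data). The CTCF ratio was 0.169 at 1500 bp, 0 at 3000 bp, 0.265 and 0.315 against those same sets. The KLF or SP ratio was 1.45 and 1.49 against them and 2.75 in the central 150 bp of peaks. With 1 library the ratios ran from 0.745 to 0.802, 0.0918 to 0.182 and 1.45 to 2.16. Without the chromosome 2 segment (chosen after seeing the data) members held 4.39 peaks on average, against 4.56, and 4.70 in replicate 2. In every alternative run the C/EBP and CTCF ratios stayed under 1 and the KLF or SP ratio above 1. The causes of the shifts were not tested.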
